A study of Mus musculus with 27 samples.

Results

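The 10 genes described here encode the enzymes that carry glucose to lactate in adult skeletal muscle, 1 gene a step, with the muscle isoform taken where a step has several and without the isomerase that follows hexokinase (Gpi1, given with the other genes of glucose use). They are Hk2, Pfkm, Aldoa, Tpi1, Gapdh, Pgk1, Pgam2, Eno3, Pkm and Ldha, chosen by symbol from the 54532 genes of the expression table (for Aldoa, the row ENSMUSG00000030695), and all 10 passed the filter on low values that left 14630 genes for testing. Bulk RNA sequencing was performed on 27 tibialis anterior samples: 5 from muscle without injury and 5, 6, 6 and 5 from muscle at 3, 7, 14 and 21 days after volumetric muscle loss (VML), a surgical excision too large for the muscle to refill. The public record describes 8-week-old male C57BL/6 mice with 40% of the muscle removed. The excision is called unilateral in that record and bilateral in the paper, the labels do not say whether a sample came from 1 mouse or from which leg, and no sham operation is named for the uninjured muscles. If replicates do not come from separate mice, p-values measure only the spread between these samples, which may be technical.

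In glycolysis, hexokinase traps glucose in the cell, phosphofructokinase commits it to breakdown, and aldolase and triosephosphate isomerase split it into triose phosphates. Glyceraldehyde-3-phosphate dehydrogenase, phosphoglycerate kinase, phosphoglycerate mutase, enolase and pyruvate kinase then yield ATP and pyruvate, and lactate dehydrogenase regenerates NAD by making lactate. The tibialis anterior of the mouse consists mainly of fast fibres, which depend on this pathway for short, strong contractions and hold some of its enzymes at very high levels. A few steps use an isoform that is found mainly in mature muscle (Pfkm, Pgam2, Eno3), whereas others use a gene that is expressed in nearly all cells (Tpi1, Gapdh, Pgk1).

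Levels are given as FPKM, fragments per kilobase of gene and per unit of sequenced reads. The gene length divided out differs from the longest transcript to unlike degrees. It exceeds it for Aldoa (2911 against 1549 bases) and Pkm (5001 against 2432) and equals it for Pgam2 (840). Comparisons between genes, the order of levels and the isoform shares included, depend on these lengths. Each sample held 14376395 to 24436763 reads, with a median of 17398586. The members were covered by at least 798 reads in every sample, so that counting error was small beside the spread between samples. The denominators inside the FPKM were 0.747 to 0.819 times a sample's own total of reads without injury and 1.14 to 1.48 times at day 3, a scaling whose effect is described with the fold changes. By the distance to group centroids over all tested genes, 9 of 27 samples lay nearer to another group than to their own, all of them from injured muscle. Among these, replicate 5 at day 3 lay nearest to day 7, replicate 5 at day 7 nearest to day 3 and replicate 3 at day 7 nearest to the uninjured muscles. Of the 13 markers of fast fibres, 12 were abundant in uninjured muscle and Tnnc2, fast troponin C, was nearly absent from its row at 0.409 ± 0.394 FPKM (SD, n = 5).

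In uninjured muscle the members covered a wide range of levels, with Aldoa, Eno3 and Pgam2 far above the rest. Aldoa, the muscle aldolase, reached 10426 ± 730.3 FPKM (SD, n = 5 here and for each uninjured mean below). Eno3, the beta enolase of muscle, stood at 5532 ± 397 FPKM and Pgam2, the muscle phosphoglycerate mutase, at 5188 ± 995, and these neighbours in the order overlapped in their samples. Pfkm, the muscle phosphofructokinase, at 1472 ± 75.0 FPKM overlapped with Ldha, lactate dehydrogenase A, at 1320 ± 97.6, which in turn overlapped with Tpi1, triosephosphate isomerase, at 1196 ± 97.0. Pkm, the pyruvate kinase gene of muscle and many other cells, followed at 990 ± 59.3 FPKM. Gapdh at 373 ± 273 FPKM and Pgk1, phosphoglycerate kinase, at 322 ± 61.3 overlapped, and Hk2, the hexokinase of insulin-responsive tissues, was lowest at 54.0 ± 8.29. The 10 genes together took 3.96% ± 0.31 of the summed FPKM of a sample, and Aldoa, Eno3 and Pgam2 made up 77.6% to 79.9% of the summed FPKM of the 10. The first and last places of the order were kept at every time point, by Aldoa and Hk2. In FPKM with these gene lengths, Pfkm fell from the fourth mean to the seventh at day 3, where its samples overlapped with those of Ldha, Tpi1 and Pkm.

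The regions before the transcription starts differed among the members. In RefSeq, the 10 genes have 17 start windows on GRCm38.p6, of which the 250 bases before the start were searched on both strands for ACGTG and GCGTG (the core bound by hypoxia-inducible factors), TATAAA, the GC box GGGCGG and the MEF2 motif. ACGTG or GCGTG was found in 12 of the 17 windows and in at least 1 window of 8 of the 10 genes, against 38.6% of all 32851 windows and 41.5% of the 27025 genes with a window. Tpi1 and Pgam2 had neither. Some windows of Aldoa and of Pfkm overlapped, so that a site can count more than once. The GC content of the members' windows was between 36.4% and 69.6%, mostly above the median of 52.4% over all windows. The shares over all windows and genes were not matched for it. TATAAA was in no window of a member and in 12.4% of all windows, and the GC box was in windows of 6 members (Aldoa, Hk2, Ldha, Pgk1, Pkm and Tpi1) and in windows of 35.4% of all genes. A MEF2 match, present in 2.92% of all windows, occurred once among the members, in Pgam2. The windows of 3 genes are shown, Pgam2 for the MEF2 match that no other member had, Ldha for the most ACGTG matches in a window and Pgk1 as a gene of nearly all cells with such matches: Pgam2 with its MEF2 match in capitals, starting 80 bases before the RefSeq start, and Ldha and Pgk1 with their ACGTG matches in capitals, where CACGTG counts as 2 overlapping matches, 1 on each strand. Ldha held 5 matches, the most of any member, and Pgk1 held 2. Pgam2 is on the minus strand at chr11:5803797-5804046, Ldha on the plus strand at chr7:46845554-46845803 and Pgk1 on the plus strand at chrX:106186850-106187099, each printed 5′ to 3′ in the direction of its gene. A match describes these letters and is no evidence of binding.
Pgam2: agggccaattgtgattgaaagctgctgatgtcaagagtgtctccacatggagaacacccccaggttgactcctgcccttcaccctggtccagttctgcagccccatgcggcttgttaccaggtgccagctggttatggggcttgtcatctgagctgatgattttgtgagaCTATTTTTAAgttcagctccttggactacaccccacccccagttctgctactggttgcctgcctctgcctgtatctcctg
Ldha: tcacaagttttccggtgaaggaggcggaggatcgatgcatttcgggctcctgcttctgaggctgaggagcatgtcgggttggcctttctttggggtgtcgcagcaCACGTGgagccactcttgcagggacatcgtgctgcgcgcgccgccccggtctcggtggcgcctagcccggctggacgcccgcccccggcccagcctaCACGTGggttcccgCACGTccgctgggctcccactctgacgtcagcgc
Pgk1: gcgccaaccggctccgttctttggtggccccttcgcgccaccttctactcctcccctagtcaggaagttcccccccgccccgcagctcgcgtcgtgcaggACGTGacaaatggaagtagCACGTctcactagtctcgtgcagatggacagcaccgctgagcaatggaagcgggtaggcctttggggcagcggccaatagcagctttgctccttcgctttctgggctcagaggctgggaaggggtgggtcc

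Of the 10 genes, 8 fell at day 3 and none rose with the deposited scaling (2 to 4 fell under the other scalings given at the end), with group means that dropped to between 33.6% and 53.4% of the uninjured means for those called. Pfkm fell most and Pkm least among the 8, and Pgk1 and Gapdh did not pass the test. Calls here are from limma on log2(FPKM + 1) with a Benjamini-Hochberg adjusted p of 0.05 over all tested genes, which called 19.8% of all tested genes lower and 23.4% higher at day 3. The median log2 fold change was -1.16 over the 10 genes and 0.01 over all tested genes. In the same 8 genes, all 5 samples lay below every uninjured sample, as they did in 16.5% of all tested genes.

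**Figure D1:**
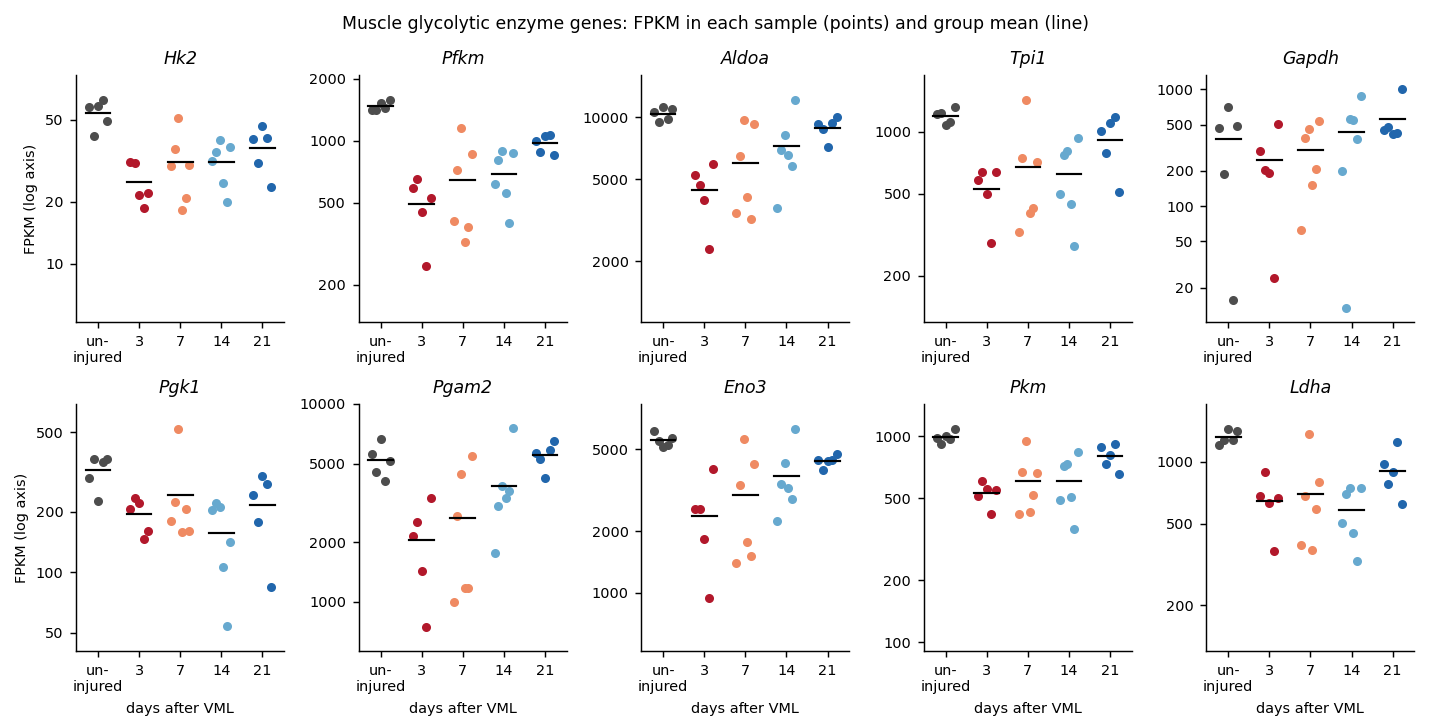
FPKM of each of the 10 genes (log axis) in every sample, with points for samples and a line for the group mean, in uninjured muscle and at 3, 7, 14 and 21 days after VML. At day 3 all points of Hk2, Pfkm, Aldoa, Tpi1, Pgam2, Eno3, Pkm and Ldha sit below the uninjured points, whereas the highest and lowest Gapdh values differ by factors of 45.5 without injury, 21.1 at day 3 and 65.8 at day 14.

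Among the enzymes upstream of the triose phosphates, Hk2, which phosphorylates glucose on entry, measured 57.9, 41.7, 58.4, 62.3 and 49.4 FPKM in uninjured replicates 1 to 5 and 31.1, 30.8, 21.5, 18.7 and 22.1 at day 3. The groups did not overlap, and the log2 fold change was -1.10 (SE 0.24, limma adjusted p = 0.00058). Pfkm measured 1416, 1405, 1529, 1437 and 1574 FPKM without injury and 590.3, 655, 451, 247 and 529.7 at day 3. The highest day 3 sample was far below the lowest uninjured one, and replicate 4 was the lowest. Its log2 fold change of -1.65 (SE 0.30, limma adjusted p = 0.000129) was the largest fall of the 10. Aldoa measured 10663, 9503, 11191, 9824 and 10953 FPKM without injury and 5270, 4689, 3977, 2298 and 5958 at day 3, again with replicate 4 lowest and no overlap. It fell by 1.30 on the log2 scale (SE 0.33, limma adjusted p = 0.00256). Tpi1, which interconverts the triose phosphates, ranged from 1086 to 1326 FPKM without injury and from 288 to 641 at day 3, and fell by 1.23 (SE 0.35, limma adjusted p = 0.00614).

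Among the enzymes downstream, Pgam2 measured 5581, 4518, 6633, 4063 and 5144 FPKM without injury and 2150.2, 2539, 1430.5, 748 and 3357 at day 3. All day 3 samples were lower, over a wider relative range than without injury, with a coefficient of variation of 49.1% against 19.2%. The log2 fold change was -1.50 (SE 0.44, limma adjusted p = 0.00777). Eno3, which makes phosphoenolpyruvate, went from between 5127 and 6133 FPKM to between 948 and 3997, a fall of 1.36 (SE 0.36, limma adjusted p = 0.0037). Pkm, which makes pyruvate, went from between 917 and 1079.9 FPKM to between 419 and 608, a fall of 0.91 (SE 0.22, limma adjusted p = 0.00184). Ldha, which makes lactate, measured 1206, 1278, 1434, 1273 and 1409.5 FPKM without injury and 681, 889, 628, 368 and 667 at day 3. No sample overlapped, and the log2 fold change was -1.08 (SE 0.30, limma adjusted p = 0.00502). Pgk1, which makes the first ATP of the pathway, measured 296, 366, 226, 354 and 369 FPKM without injury and 208, 235, 221, 147 and 160.1 at day 3. At day 3, 4 of the 5 samples were below the uninjured range and 1 lay within it, and the log2 fold change of -0.73 (95% interval -1.48 to 0.02) did not pass the test (limma adjusted p = 0.112).

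At day 7 the same 8 genes were called lower and none higher, against 14.4% of all tested genes lower and 15% higher (1 with own totals or TPM and 2 with quantile normalization). Their samples were more mixed than at day 3: replicates 1, 4 and 5 stood at a median of 28.7%, 33.8% and 37.2% of the uninjured means over the 10 genes, and replicate 3 at 98.8%. Pfkm ranged from 321 to 1159 FPKM with a median of 565, and was the only member with every day 7 sample below every uninjured one, as in 5.37% of all tested genes. It fell by 1.35 against uninjured muscle (SE 0.29, limma adjusted p = 0.00157). Ldha ranged from 371 to 1362 FPKM (median 633) and Pgam2 from 1003 to 5448 (median 1952), both overlapping with the uninjured samples. Their log2 fold changes were -1.06 (SE 0.29, limma adjusted p = 0.00786) and -1.27 (SE 0.42, limma adjusted p = 0.0256). The other calls were Hk2 at -0.84, Aldoa at -0.93, Tpi1 at -1.01, Eno3 at -1.10 and Pkm at -0.76 on the log2 scale. Leaving out replicate 1, 4 or 5 of day 7 in turn left 4 calls each, leaving out replicate 3 left 8, and leaving out replicate 5 of both day 3 and day 7 left 5.

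At day 14, 6 members were called lower and none higher (Hk2, Pfkm, Tpi1, Pgk1, Pkm and Ldha), against 11.3% of all tested genes lower and 9.02% higher. With own totals, TPM and quantile normalization 2, 1 and 0 members were called, and Pgk1 was called under none of the 3. In the same 6 genes no day 14 sample reached the uninjured range, as in 8.05% of all tested genes. Ldha ranged from 329 to 748 FPKM (median 602) at day 14 and fell by 1.25 (SE 0.29, limma adjusted p = 0.00424), the largest change of that day. Pgk1 ranged from 53.8 to 222 FPKM (median 173) and fell by 1.16 (SE 0.35, limma adjusted p = 0.0202), and this was the only day at which it was called. Pfkm ranged from 399 to 893 FPKM (median 709) and fell by 1.15 (SE 0.29, limma adjusted p = 0.00759). Aldoa ranged from 3632 to 12128 FPKM (median 6792), Pgam2 from 1764 to 7523 (median 3488) and Eno3 from 2246 to 6236 (median 3315). In each of these 3 genes, 5 samples lay below the uninjured range and replicate 6 above it. Their log2 fold changes of -0.62, -0.54 and -0.65 did not pass the test (limma adjusted p = 0.166, 0.375 and 0.186). Without replicate 5 of day 14, which was the lowest for Hk2, Pfkm, Tpi1, Pgk1, Pkm and Ldha, 3 calls were left (Pfkm, Pkm and Ldha).

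None of the 10 genes was called at day 21, where limma called 1.69% of all tested genes lower and 1.74% higher. One member and 2898 of all tested genes had an unadjusted p under 0.05, and voom on the reads recovered from the table also called no member. Of the log2 fold changes, 8 were below 0, at a median of -0.39 over the 10 genes against 0.01 over all tested genes. Pfkm measured 995, 884, 1059, 1068 and 856 FPKM, all below every uninjured sample. Its log2 fold change was -0.60 (95% interval -1.22 to 0.02, limma adjusted p = 0.267). Eno3 measured 4423, 3977, 4393, 4431 and 4723 FPKM, also without overlap, with a log2 fold change of -0.33 (limma adjusted p = 0.652). Non-overlap downwards at day 21 held for these 2 members and for 5.13% of all tested genes. Pgam2 measured 5649.6, 5244, 4240.5, 5873 and 6528 FPKM, all within the uninjured range, with a log2 fold change of 0.09 (95% interval -0.81 to 0.999). Ldha measured 971, 778, 887, 1243 and 622 FPKM, with 4 samples below the uninjured range, and Hk2 likewise had 4 below it.

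**Figure D2:**
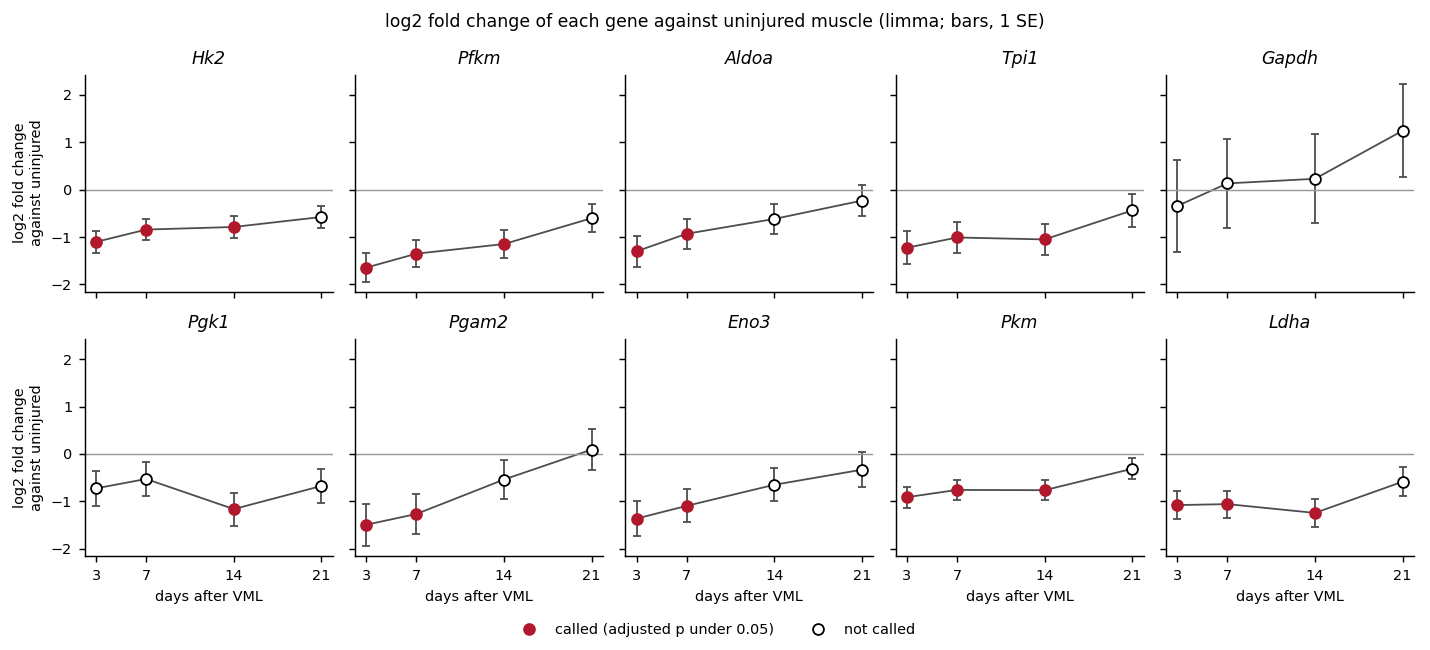
log2 fold change of each gene against uninjured muscle at 3, 7, 14 and 21 days after VML, from limma on log2(FPKM + 1), with bars of 1 SE; filled points have an adjusted p under 0.05. Pgam2 moves from -1.50 at day 3 to 0.09 at day 21, whereas Ldha stays between -1.06 and -1.25 through day 14 and Pgk1 is lowest at day 14.

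Between day 3 and day 21 a direct comparison called 5 members higher (Pfkm, Aldoa, Pgam2, Eno3 and Pkm) and none lower, against 9.23% of all tested genes higher and 16.2% lower. With own totals, TPM and quantile normalization 3, 2 and 2 members were called, Pgam2 under each, and the values turned to -0.19 for Aldoa with quantile normalization and to -0.03 for Pkm with TPM. A block for the letter of the replicate left 2 calls. Of the 5 called as deposited, Pgam2 rose most, by 1.59 on the log2 scale (SE 0.44, limma adjusted p = 0.01). Aldoa rose by 1.07 (SE 0.33, limma adjusted p = 0.0193), Pfkm by 1.04 (SE 0.30, limma adjusted p = 0.0131), Eno3 by 1.03 (SE 0.36, limma adjusted p = 0.0382) and Pkm by 0.60 (SE 0.22, limma adjusted p = 0.0495). The values for Hk2, Tpi1 and Ldha were 0.53, 0.79 and 0.49 and did not pass, and Pgk1 stood at 0.05 (95% interval -0.70 to 0.80). This count rested on few samples: without replicate 4 of day 3, the lowest sample of that day in all 10 genes, 1 call was left (Pgam2). Voom on recovered reads called 4 of the 5, without Pkm. No member was called between day 3 and day 7, day 7 and day 14, or day 14 and day 21, where limma called 0.0478%, 0.335% and 0.0% of all tested genes in either direction, and 0, 0 and 2 members had an unadjusted p under 0.05 (2301, 1821 and 909 genes of all tested).

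Gapdh behaved unlike the other 9 and is described apart, also because the study used it as the reference of its quantitative PCR. It measured 465, 188, 713, 15.7 and 483 FPKM in the 5 uninjured replicates, a ratio of 45.5 between the highest and the lowest. On the log2 scale this range of 5.42 was the widest of all 14630 tested genes among the uninjured samples, and the median range of the 242 genes with at least its mean level was 0.632. At day 3 it measured 299, 205, 193, 24.2 and 509.8 FPKM, which lay within the uninjured range. It ranged from 62.7 to 531 FPKM at day 7 (median 295) and from 13.4 to 884 at day 14 (median 459). At day 21 it measured 447, 476, 413, 426 and 1006 FPKM, a tighter group apart from replicate 5. The log2 fold changes of -0.34, 0.13, 0.23 and 1.24 at days 3, 7, 14 and 21 had SEs of 0.94 to 0.98 and limma adjusted p of 0.807, 0.932, 0.888 and 0.507. The interval at day 3 ran from -2.36 to 1.67 and so includes the changes of the other members. The lowest values rested on 798 reads or more, and the reads on the 5 rows of Gapdh pseudogenes were at most 0.877% of its own. How reads that match several of these rows were counted was not tested. Without uninjured replicate 4, the values for days 3, 7, 14 and 21 were -1.27, -0.80, -0.70 and 0.31. The value for day 3 was 0.08 without uninjured replicate 3 and 0.35 without replicate 4 of day 3. Its row overlaps Iffo1 on the other strand, and the libraries do not keep strand. Among 10 other genes often used as references (Actb, B2m, Ppia and Ywhaz among them), the ratio of highest to lowest uninjured sample was between 1.17 and 1.76. Of those 10, limma called 7, 3, 2 and 0 higher on days 3, 7, 14 and 21, respectively. With this deposited scaling, 23.4%, 15%, 9.02% and 1.74% of all tested genes were called higher on those days.

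Within single samples the members did not always keep step. In replicate 5 at day 21, Pgk1 stood at 26.1% of the uninjured mean, Hk2 at 43.6%, Tpi1 at 42.7% and Ldha at 47.1%, whereas Pgam2 stood at 126%, Aldoa at 96.3% and Gapdh at 270%. Replicate 6 at day 14 had Pgk1 at 43.9% beside Pgam2 at 145% and Gapdh at 237%, and replicate 5 at day 14 had Pgk1 at 16.7% beside Pgam2 at 70.1% and Gapdh at 100.5%. Replicate 3 at day 7 had Pgk1 at 161%, Gapdh at 124% and Tpi1 at 119% beside Pgam2 at 85.5%. Of the 27 libraries, replicate 5 at day 21 and replicate 5 at day 14 had the highest shares of reads from the mitochondrial genome, at 35.1% and 28.5%, against 17.7% to 24.9% without injury. Of the other samples named here, replicate 6 at day 14 was within that range at 19.7%, and replicate 3 at day 7 was below it at 13.7%. The part of this share in the samples' profiles was not tested. The ratio of the highest to the lowest percentage among the 10 genes was widest where Gapdh was near its lowest, at 27.5 in uninjured replicate 4 and 20.05 in replicate 2 at day 14, and reached 10.3 in replicate 5 at day 21. Over the 27 samples, which share the change between groups, the 36 pairs of members without Gapdh had a median Pearson r of 0.83 on the log2 scale (range 0.13 to 0.97). The 9 pairs with Gapdh had a median of 0.26. With the group means removed these medians were 0.76 and 0.27. Pgk1 gave the lowest of the 36 pairs over the 27 samples, at 0.13 with Pgam2, 0.26 with Aldoa and 0.33 with Eno3. Gapdh stood higher with the same genes, at 0.57, 0.48 and 0.48. Such correlation was not particular to the members: fast fibre genes had an r with the members' mean of up to 0.95 (Acta1), and down to -0.01 (Tnnc2).

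**Figure D3:**
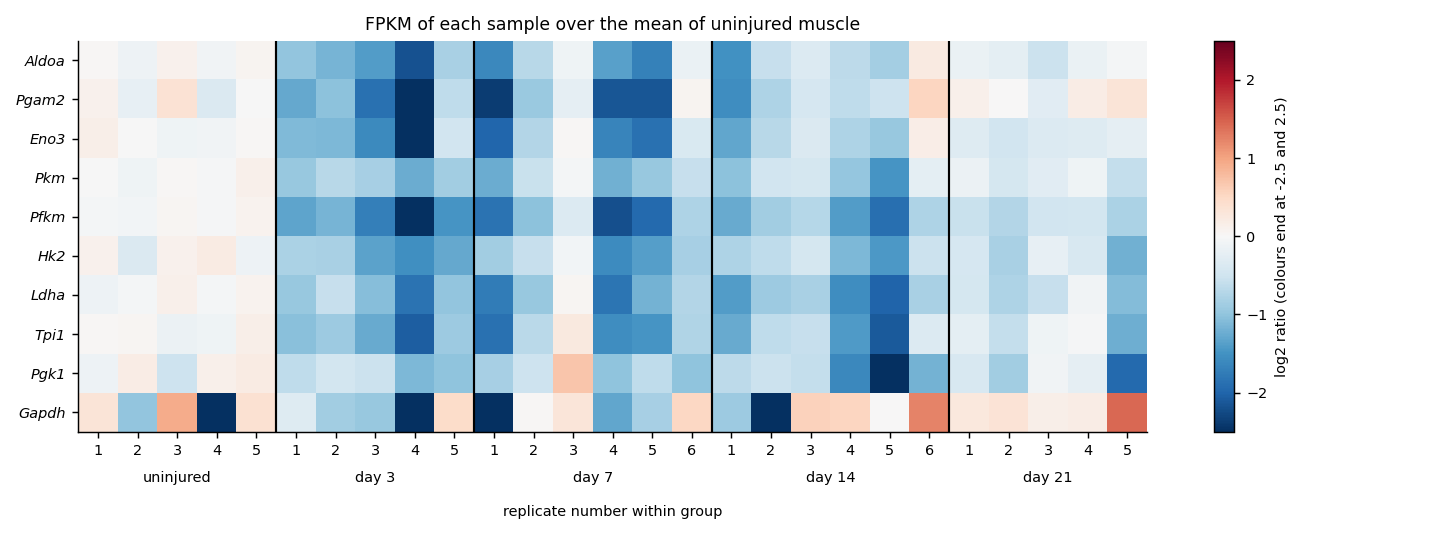
FPKM of each gene in each sample over the mean of uninjured muscle, as log2 ratios in colour, with genes in rows and the 27 samples in columns by group and replicate number; ratios beyond the ends of the colour scale take its end colours. Replicate 4 at day 3 is low in all 10 genes. In replicates 4, 5 and 6 at day 14 and replicate 5 at day 21, Pgk1 is at 43.9% of the uninjured mean or less while Gapdh is at or above its uninjured mean.

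The counterpart isoforms, which serve the same steps mainly in other cells, moved the other way at day 3 in 5 of the 6 that were tested. Their calls are for the deposited scaling, where 23.4% of all tested genes were called higher and 19.8% lower at day 3. Hk1, Pfkl, Pfkp, Pgam1 and Eno1 rose, and Ldhb, the lactate dehydrogenase of oxidative tissue, fell; Aldoc was too low to test, with at most 0.417 FPKM in any sample. Eno1, the ubiquitous enolase, went from 22.4 ± 2.98 FPKM (SD, n = 5) to 90.6 ± 29.5 (SD, n = 5) at day 3, a rise of 1.92 on the log2 scale (SE 0.27, limma adjusted p = 7.55e-06). Pgam1, the ubiquitous mutase, went from 4.22 ± 1.02 to 20.1 ± 11.3 FPKM and rose by 1.86 (SE 0.37, limma adjusted p = 0.000299). Hk1, Pgam1 and Eno1 were still called higher at day 7, none of the 6 was called higher at day 14, and none was called at day 21. Ldhb was called lower at days 3, 7 and 14, with log2 fold changes of -1.79, -1.65 and -1.81. Even at the lowest point the member held most of the FPKM in each step with a listed counterpart. Tpi1, Gapdh, Pgk1 and Pkm had none listed, and Aldoa was set against Aldoc alone. Which cells expressed a member was not tested. Eno3 made up 99.6% ± 0.0368 of the FPKM of Eno3 and Eno1 without injury, 95.01% ± 4.14 at day 3 and 99.3% ± 0.118 at day 21 (SD). Hk2 made up 97.5% ± 0.654 of the FPKM of Hk2 and Hk1 without injury, 85.9% ± 5.75 at day 3 and 95.1% ± 1.25 at day 21. Both shares were below every uninjured sample in all samples at days 3 and 21. The share of Ldha over Ldha and Ldhb overlapped between groups, at 90.3% ± 3.11 without injury and 94.0% ± 1.40 at day 3.

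Genes of fast fibres fell along with the members, and markers of macrophages, fibroblasts and regenerating fibres rose. Limma called 10, 4, 1 and 0 of 13 fast fibre genes lower on days 3, 7, 14 and 21, and none higher. On these days 19.8%, 14.4%, 11.3% and 1.69% of all tested genes were called lower. The shares called higher were 23.4%, 15%, 9.02% and 1.74%. All calls of this paragraph are for the deposited scaling. The summed FPKM of the 13 genes ranged from 108926 to 125433 without injury and from 26469 to 80735 at day 3. The summed FPKM of the 10 glycolytic genes ranged from 24355 to 29001 in uninjured samples. On days 3 and 7 it covered 5506 to 16388 and 7637 to 25689, and on days 14 and 21 it covered 10186 to 30339 and 20422 to 25050.0. The ratio of these sums was 0.228 ± 0.0124 (SD, n = 5) without injury, 0.225 ± 0.0194 (SD, n = 5) at day 3, 0.202 ± 0.0268 (SD, n = 6) at day 7, 0.207 ± 0.0200 (SD, n = 6) at day 14 and 0.215 ± 0.0242 (SD, n = 5) at day 21. In bulk muscle, fewer fibres and less RNA per fibre cannot be told apart. Of the 6 macrophage markers, limma called 6, 5, 2 and 0 higher on these days, and their summed FPKM ranged from 15.97 to 24.3 without injury and from 307 (replicate 5) to 2128 (replicate 4) at day 3. In replicate 5 at day 7 this sum was 1990, the highest of that day. Of 4 fibroblast markers, 3 were called higher at days 3, 7 and 14 and 2 at day 21. Of 6 slow fibre genes, 3, 2, 2 and 0 were called higher on the same days, and Myl3 was called lower at day 7. The 4 markers of regenerating fibres were all called higher at days 3, 7 and 14 and 2 of them at day 21. Of 4 neutrophil markers, the 3 tested were called higher at day 3, and Ly6g was at 0 in all samples but 1 of day 3, at 0.0509 FPKM. All 4 markers of proliferating cells were called higher at day 3 and none at day 21. Kdr was called lower at all 4 time points and Tek at day 3 among the 4 endothelial markers. The part of these cell types in the members' changes was not tested.

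Divided by the summed fast fibre genes of the same sample, Pfkm was the one member that stood below every uninjured sample at each time point. Relative to the uninjured mean, this ratio was 79.2% ± 16.3, 71.5% ± 15.1, 66.2% ± 15.7 and 72.1% ± 10.6 (SD) on days 3, 7, 14 and 21, with uninjured samples between 96.6% and 105%. Ldha on the same scale was at 118% ± 26.4 at day 3 and stood below every uninjured sample at days 14 and 21, at 61.9% ± 14.7 and 73.2% ± 12.1. No other member was below all uninjured samples on this scale at any day. The share of all tested genes that did so was 0.308%, 0.157%, 0.82% and 1.7% on those days. Aldoa stayed between 93.3% and 99.4% in the group means, and Pgam2 went from 86.5% ± 14.1 at day 3 to 116% ± 19.9 at day 21. These ratios share a denominator and are given as descriptions. The sum includes Acta1 and Ckm and weighs each gene by its FPKM, so that abundant genes count most. On days 3, 7, 14 and 21 the median log2 fold change of the 13 genes was -1.41, -0.83, -0.60 and -0.26. Pfkm stood at -1.65, -1.35, -1.15 and -0.60 on those days. Whether its place below the uninjured samples holds with another set of fast fibre genes was not tested.

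**Figure D4:**
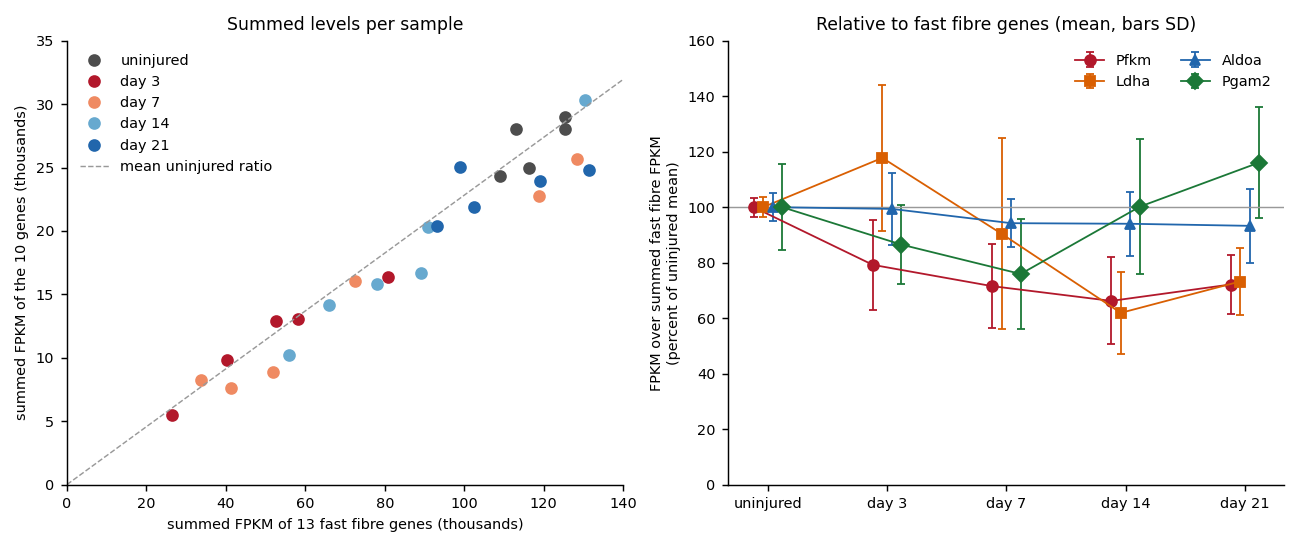
Left, summed FPKM of the 10 glycolytic genes against the summed FPKM of 13 fast fibre genes in each sample, both drawn in kilo-FPKM, with the mean uninjured ratio of 0.228 as a dashed line. Right, FPKM of 4 members divided by the fast fibre sum, in percent of the uninjured mean (points, group means; bars, SD): Pfkm lies at 66.2% to 79.2% after injury, Ldha drops to 61.9% at day 14, and Aldoa stays near 100.

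Genes that supply the pathway or take up its products mostly fell with the members. Of 18 such genes, limma called 17 lower and 1 higher at day 3, 16 lower and 1 higher at day 7, 9 lower at day 14 and 3 lower at day 21. With this deposited scaling, 19.8%, 14.4%, 11.3% and 1.69% of all tested genes were called lower on those days. With own totals, TPM and quantile normalization, 619, 322 and 3734 of all tested genes were lower at day 3, against 2899 as deposited. The 18 genes were not counted under those scalings. Their median log2 fold change at day 3 was -1.34 as deposited. The gene that rose was Slc2a1, the glucose transporter of most non-muscle cells, from 1.88 ± 0.242 FPKM (SD, n = 5) to 4.38 ± 1.60 (SD, n = 5) at day 3 (limma adjusted p = 0.00137). Slc2a4, the insulin-responsive transporter of muscle, went from 202 ± 20.01 to 73.0 ± 28.4 FPKM (limma adjusted p = 0.000655). Pygm, the glycogen phosphorylase of muscle, went from 1925 ± 269.5 to 658 ± 224 FPKM, and Phka1 and Phkg1, subunits of its activating kinase, fell by 1.63 and 1.72 on the log2 scale. Gpi1, which acts between hexokinase and phosphofructokinase, was at 191 ± 17.1 FPKM without injury, 113 ± 29.8 at day 3 and 193 ± 21.9 at day 21. The lactate carriers Slc16a1 and Slc16a3 and the mitochondrial pyruvate carrier genes Mpc1 and Mpc2 were all called lower at day 3. Pgm2 and Gys1 of glycogen metabolism, Pfkfb1, Pdha1 and Gpd1 were among those called lower at day 3 as well. The 3 genes still called lower at day 21 were Slc16a1, Pdk4, which restrains pyruvate oxidation, and Pfkfb3, which makes the activator of phosphofructokinase. Pfkfb3 had the largest change of the 18 at every day, with log2 fold changes of -2.23, -2.70, -2.22 and -1.65 at days 3, 7, 14 and 21 (limma adjusted p = 0.00468 at day 21).

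Genes known to regulate glycolytic transcription in muscle, and targets of hypoxia-inducible factors, gave no uniform picture. Of 9 regulators, limma called 6 lower and 2 higher at day 3 and none at day 21. With this deposited scaling, 19.8% of all tested genes were called lower and 23.4% higher at day 3. Hif1a, the oxygen-sensitive subunit, went from 2.63 ± 0.472 FPKM (SD, n = 5) to 6.17 ± 1.08 (SD, n = 5) at day 3 and Myc from 0.807 ± 0.226 to 4.22 ± 1.23. Of 10 genes that respond to hypoxia, 3 were called lower (Vegfa, Pdk1 and Bnip3) and 2 higher (Slc2a1 and Ero1l) at day 3, with a median log2 fold change of 0.00. The 5 genes outside the members whose values followed their standardized mean most closely over the 27 samples were Sh3bgr, Slc16a3, Me3, Abcb4 and Adssl1, with Pearson r of 0.97, 0.96, 0.96, 0.96 and 0.95. The mean of Sh3bgr was 554 FPKM in uninjured muscle, 198 on day 3 and 406 on day 21.

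The size of the fall depended on how samples were scaled to each other, whereas the members' median stayed below that of all tested genes. With FPKM rescaled to each sample's own total of reads, the median log2 fold change at day 3 was -0.51 over the members and 0.41 over all tested genes. With a common sum per sample (TPM) these medians were -0.35 and 0.51, and with quantile normalization -0.42 and -0.12. The members' median stayed below that of all genes by 0.92, 0.86 and 0.30, against 1.18 as deposited. The number of members called lower at day 3 was 4 with own totals and 4 with TPM (Pfkm, Aldoa, Pgam2 and Eno3 in both) and 2 with quantile normalization (Hk2 and Pfkm). Pfkm was thus called at day 3 under each of the 4 scalings, and at day 7 as well. At day 14 the calls under those 3 scalings were 2, 1 and 0, with Ldha called under own totals and TPM and Pfkm under own totals. Of all calls at day 3, 45.9% were in the lower direction as deposited, 8.65% with own totals, 4.48% with TPM and 57.4% with quantile normalization. The sign at day 3 turned for Gapdh (0.31 with own totals, 0.47 with TPM), for Pgk1 (0.10 with TPM) and for Aldoa (0.05 with quantile normalization). Aldoa and Gapdh (-0.04) also lay above the median of all genes at day 3 with quantile normalization, and below it as deposited.

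**Figure D5:**
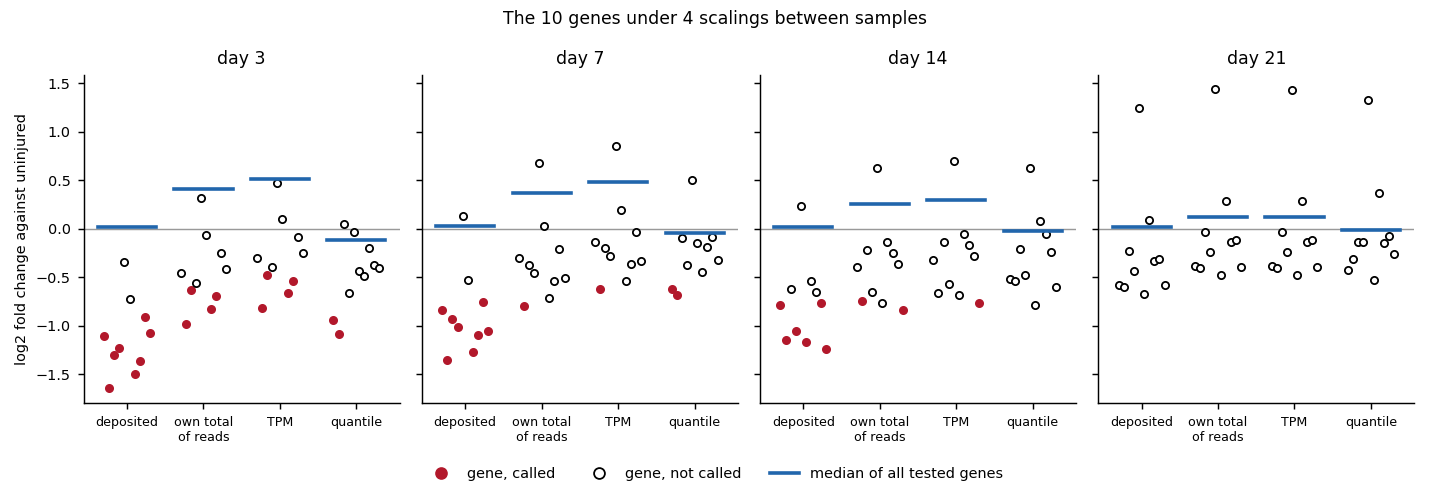
log2 fold change of the 10 genes against uninjured muscle at each day (points, filled where the adjusted p is under 0.05) under the deposited scaling, each sample's own total of reads, TPM and quantile normalization, with the median of all tested genes as a blue line. At day 3, 8, 4, 4 and 2 genes are called, and the median of all genes lies at 0.01, 0.41, 0.51 and -0.12.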

How the data were processed

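Total RNA of 27 tibialis anterior samples was sequenced after poly-T selection with non-directional libraries. Alignment by the authors used HISAT2 2.0.5 and counting used featureCounts 1.5.0-p3, and the authors deposited 1 table of FPKM for 54532 genes. The genome build is not given in the sources used here; 98.3% of the 54409 genes found in GENCODE M21 (GRCm38) had the same coordinates, among them all 10 members. The deposited FPKM times gene length gave whole reads (within 0.01) for 100% of values, and median-ratio factors of the deposited FPKM were 1 in every sample, so the table was already scaled between samples.

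Groups were read from sample titles. FPKM was transformed to log2(FPKM + 1), with a pseudocount of 1 that understates changes of low genes. A gene was tested if its FPKM reached 0.5 in 5 or more samples (14630 genes). A single limma model (version 3.58.1, R 4.3.3) of the 5 group means used the 27 libraries together, with a variance trend and two-sided tests with Benjamini-Hochberg adjustment at 0.05 within each of 8 comparisons. The 10 members, 7 counterpart isoforms, 18 other genes of glucose use and lists of cell markers, regulators and reference genes were described, together with the 5 tested genes most correlated with the members. The members and lists were chosen with earlier results of these data known. The fit was also run on simulated data with independent normal residuals and, for each gene, the same SD in all groups. These held no scaling differences between samples and no misplaced samples, so they cannot show how such features affect the calls. Start regions came from RefSeq (GRCm38.p6), and all 10 members were matched by symbol. Tables and figures used Python 3.11.15, pandas 2.3.3, numpy 2.4.6 and matplotlib 3.10.9.

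The alternatives were pseudocounts of 0.1 and 0.5, no filter or a minimum FPKM of 1, quantile, TPM, own-total and median-ratio scaling, no variance trend, a block for the number or for the letter of the replicate, a fit of the compared pair of groups alone, sample quality weights, voom on recovered reads, and samples left out. Proteins and other assays of the study are not analysed here. Single values of some listed genes are not reported here.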

Additional observations from a re-analysis of the deposited data

Results flagged for a closer look

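Of 50 sets of 1 gene in 1 group, 3 had a sample whose gap to its nearest neighbour on the log2 scale was too large a part of the group's range for its size by Dixon's test at the 5% level, which chance alone gives in about 1 set of 20. Gapdh was lowest in replicate 2 at day 14 (13.4 FPKM, gap 0.639 of the range), Gapdh was highest in replicate 5 at day 21 (1006 FPKM, 0.84 of the range) and Pgk1 was highest in replicate 3 at day 7 (519.6 FPKM, 0.715 of the range).

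The effect at day 21 differed from the effect at day 3 in 5 members by the direct limma comparison of both days, which is the difference of their effects against the shared uninjured samples. The differences on the log2 scale were 1.04 for Pfkm, 1.07 for Aldoa, 1.59 for Pgam2, 1.03 for Eno3 and 0.60 for Pkm. This count of 5 is for the deposited scaling and was 3, 2 and 2 with own totals, TPM and quantile normalization. It was 2 with the letter as a replicate block and 1 without replicate 4 of day 3.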

How the results depend on the processing

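Of 3360 values of single members over the alternatives, 3222 kept their side of the threshold, 126 lost a call, 9 gained one and 3 called values turned in direction. Values that were not called could change sign and still count among the 3222. The sign changed in 83 of the 3360 values, uncalled ones included. The 3 called values that turned were Aldoa at day 3 with quantile normalization (0.0507) and, for day 21 against day 3, Aldoa with quantile normalization (-0.19) and Pkm with TPM (-0.0312). Median-ratio scaling gave the deposited values again. Members called at day 3 (8 as reported) were 2 with quantile normalization, 4 with TPM and 4 with own totals. At day 7 (8) they were 4 without a filter, 2 with quantile normalization, 1 with TPM, 1 with own totals, 4 with only the 2 groups compared and 5 without replicate 5 of day 3 and of day 7. At day 14 (6) they were 0, 1 and 2 with quantile normalization, TPM and own totals. At day 21 (0) there was 1 with the letter as a replicate block and 1 with only the 2 groups compared. For day 21 against day 3 (5) there were 2 without a filter, 2 with quantile normalization, 2 with TPM, 3 with own totals, 2 with the letter as a replicate block and 8 with sample quality weights. Leaving out 1 sample at a time, the count stayed at 8 for day 3 and at 0 for day 21. It ranged between 4 and 8 for day 7 (4 without replicate 1, 4 or 5 of that day), between 3 and 6 for day 14 (3 without its replicate 5) and between 1 and 6 for day 21 against day 3 (1 without replicate 4 of day 3). The cause of these differences was not tested.

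Same-numbered samples of different groups did not deviate together in the median (r of -0.003, range -0.52 to 0.57, over 0.1 in 15 of 51 pairs). Of 27 samples, 11 correlated best with their own number, and 11 with their own letter. Whether numbers or letters mark a pairing cannot be told from these values. With the replicate number as a block the members called were 8, 8, 6 and 0 at days 3, 7, 14 and 21 and 5 for day 21 against day 3. With the letter as a block they were 8, 8, 6, 1 and 2. At day 21 the block by number called 405 of all tested genes lower and 390 higher, and the block by letter 675 and 558. Over all tested genes, the number called in either direction, samples left out included, moved between 5289 and 8251 for day 3, 2901 and 6513 for day 7, 1785 and 4324 for day 14, and 49 (TPM) and 2471 (quality weights) for day 21, where 247 and 255 genes were called lower and higher as reported. It moved between 1 and 2265 for day 7 against day 3 (7 as reported, 2265 without replicate 5 of both days), 5 and 151 for day 14 against day 7 (49 as reported) and 2316 and 6472 for day 21 against day 3. Voom on recovered reads called 2894 genes lower and 3282 higher at day 3. With 5 or 6 samples a group and the spread of Gapdh, changes of this gene smaller than its intervals could not be seen.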
